A study of Homo sapiens with 4 samples.

Results

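The genes described here are 10 components of the Notch pathway, chosen by name: the receptor genes NOTCH1, NOTCH2 and NOTCH3, the ligand genes JAG1, DLL1 and DLL3, the nuclear partner genes RBPJ and MAML2, and the target genes HES1 and HEY1. They are 10 of 17687 genes with a named probe set, and each was measured by 1 probe set. SK-N-AS, an established human neuroblastoma line, was kept with 30 µM BG-P400-TAT or with phosphate-buffered saline (the untreated group) for 48 h, and each group has 2 arrays. By the series title, BG-P400-TAT targets both the norepinephrine transporter and the integrin αvβ3, to which thyroid hormone binds. The design text calls the arrays of a group biological replicates; nothing further on the cultures is given in the sources, and p-values thus reflect the spread among these arrays, which may be technical. All 4 arrays come from 1 cell line, 1 dose and 1 exposure time, and expression is the only readout.

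Notch receptors are single-pass membrane proteins that bind Jagged or Delta-like ligands on a neighbouring cell. Ligand binding exposes the receptor to ADAM proteases and then to γ-secretase, which frees the intracellular domain. That domain enters the nucleus, joins the DNA-binding protein RBPJ and a Mastermind-like co-activator, and switches on repressor genes of the HES and HEY families. In neuroblastoma, Notch receptors and MAML2 are known for their part in the mesenchymal cell state, while in the developing sympathetic lineage HES proteins hold back proneural factors.

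A probe set was called above background where its mean log2 expression over the 4 arrays exceeded 6.96, the 95th percentile of 612 negative-control sets, and 46.4% of the 21448 tested probe sets did so. On single arrays the same percentile was 7.31 and 7.64 (untreated 1 and 2) and 7.19 and 7.25 (treated 1 and 2). Untreated replicate 2 stood apart: its median absolute log2 difference to the other arrays was 0.237 to 0.244, against 0.193 to 0.208 among the other 3. Results that turn on that array are therefore given with and without it. Of the marker genes measured, 6 of 8 adrenergic and 9 of 12 mesenchymal neuroblastoma markers were above background, among them PHOX2A, HAND2, GATA3, VIM, FN1 and PRRX1. The catecholamine enzyme genes TH and DBH were not above it. None of 5 endothelial or 4 Schwann cell precursor markers was above background, whereas KRT8 and KRT18 of 5 epithelial markers and PTPRC of 4 leukocyte markers were.

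Of the 10 genes, those that act in the nucleus were at or above background and the receptors and ligands were below it. HES1, HEY1 and RBPJ exceeded the background percentile on all 4 arrays, in untreated and in treated cells, as did 40.6% of all probe sets. MAML2 lay at the edge, and the 3 receptors and 3 ligands lay below the percentile on all 4 arrays. After exposure to BG-P400-TAT none of the 10 passed the test: limma adjusted p-values ran from 0.948 to 0.997, and the differences on the log2 scale from -0.48 to 0.28. The same test called 0 of 21448 probe sets (0%) at an adjusted p under 0.05, and 1089 (5.08%) at an unadjusted p under 0.05, made up of 2.88% lower and 2.20% higher in treated cells. This last count moved when some arrays were left out, though hardly without untreated replicate 2. Such fits keep 1 array in a group, so their counts are not given.

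The promoters of HES1 and RBPJ are shown because these are the nuclear genes above background whose upstream sequence holds the letters that RBPJ is known to bind. Sequences are from RefSeq, build GRCh38.p14, and cover the 250 bases before the annotated start, written 5′ to 3′ on the gene's own strand. Capitals mark TGGGAA, the core of the RBPJ site, on either strand, where TTCCCA is its reverse complement. The window of HES1 is chr3:194135898-194136147 (plus strand) and that of RBPJ is chr4:26319496-26319745 (plus strand), which is 1 of 5 start-site windows listed for RBPJ.
HES1: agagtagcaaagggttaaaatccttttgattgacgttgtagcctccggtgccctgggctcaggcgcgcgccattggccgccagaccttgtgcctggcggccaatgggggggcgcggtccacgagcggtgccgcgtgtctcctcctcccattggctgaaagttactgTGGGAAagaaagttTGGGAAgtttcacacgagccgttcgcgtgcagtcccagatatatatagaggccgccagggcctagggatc
RBPJ: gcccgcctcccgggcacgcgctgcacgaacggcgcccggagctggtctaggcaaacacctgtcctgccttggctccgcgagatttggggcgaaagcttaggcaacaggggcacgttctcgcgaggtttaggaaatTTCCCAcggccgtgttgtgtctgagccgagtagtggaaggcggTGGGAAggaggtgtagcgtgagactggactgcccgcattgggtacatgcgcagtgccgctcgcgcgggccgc
HES1 held 2 matches to TGGGAA, both on its own strand, at 84 to 79 and at 70 to 65 bases before the start, with 8 bases between them. The first of these was also a match to the longer form GTGGGAA. RBPJ held 1 match on each strand, at 115 to 110 and at 72 to 67 bases before the start with 37 bases between them, and both extended to GTGGGAA. Over all 34943 windows of this length, 20.9% held TGGGAA at least once and 2.89% at least 2 times, on both strands counted together. For GTGGGAA, whose matches all contain TGGGAA, the shares were 5.41% and 0.175%. HES1 protein is known to repress its own gene through N-boxes, CACNAG. The HES1 window held 3 such matches and that of MAML2 held 2, where 6.33% of all windows held 2 or more. The NOTCH3 window and 1 RBPJ window other than the one shown held 1 each. At least 1 match to CACNAG was held by 32.1% of all windows. Promoter entries were found for 7 of the 10 genes, in 11 windows, and not for DLL1, DLL3 and HEY1. The other 9 windows, those of NOTCH1, NOTCH2, NOTCH3, JAG1 and MAML2 and the remaining 4 of RBPJ, held no TGGGAA. Thus 2 of the 11 windows held TGGGAA, beside 20.9% of all windows. Both were picked to be shown because they hold it, so the shares above are not a test of them. These matches describe letters in a window and not binding in these cells.

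HES1 encodes a basic helix-loop-helix repressor and is a classical direct target of Notch. Untreated replicates 1 and 2 gave log2 values of 9.59 and 9.16, treated replicates 1 and 2 gave 9.19 and 9.67, and other genes are listed in the same order. The groups overlapped, with the highest and the lowest value on treated replicate 2 and untreated replicate 2. The difference between treated and untreated cells was 0.056 ± 0.25 (SE) on the log2 scale, with a 95% interval from -0.53 to 0.64 and a limma adjusted p of 0.997. Each group spread more than the groups differed: the arrays were 0.426 apart in untreated and 0.474 apart in treated cells. The sign turned without untreated replicate 2 (-0.16) and without treated replicate 2 (-0.18). Of the 612 negative-control sets, 7 had a mean at or above that of HES1.

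HEY1, a related repressor that can pair with HES1, was the steadier of the target genes. Its values were 11.52 and 11.41 in untreated and 11.34 and 11.30 in treated cells. Both treated arrays lay below both untreated arrays, by a narrow margin. The difference was -0.14 ± 0.18 (SE), with an interval from -0.57 to 0.29 and a limma adjusted p of 0.985. With any 1 array left out it ran from -0.19 to -0.09, and groups that do not overlap fix its sign in such fits. A difference of at least this size, in either direction, was seen in 45.2% of the 9960 probe sets above background. For HEY1, 1 of the 612 negative-control sets reached its level.

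RBPJ encodes the DNA-binding protein of the pathway, which represses targets without Notch and activates them with it. Its log2 expression was 11.19 and 10.67 in untreated and 11.17 and 10.92 in treated cells. Replicate 1 was the higher array in each group, and the groups overlapped. The difference was 0.12 ± 0.24 (SE), interval -0.45 to 0.68, limma adjusted p 0.997. It rested on untreated replicate 2, the lowest value: without that array the difference was -0.14, and without treated replicate 1 it was -0.0095. RBPJ has near-identical pseudogene copies, and whether the probe set also detects them was not tested.

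MAML2 encodes a Mastermind-like co-activator that bridges the Notch-RBPJ complex to histone acetyltransferases. Its values were 7.18 and 7.39 in untreated and 7.03 and 7.07 in treated cells. Both treated arrays were below both untreated ones. The mean over 4 arrays, 7.17, exceeded the limit of 6.96 by 0.21, yet no single array exceeded its own percentile. NOTCH2, at 6.08, was the nearest member below the limit. The MAML2 difference was -0.23 ± 0.19 (SE), interval -0.68 to 0.21, limma adjusted p 0.962, and it ran from -0.34 to -0.13 with 1 array left out. Of its paralogs, MAML1 stood at 8.14 and MAML3 at 7.70 over the 4 arrays, above the array's own percentile on 4 and on 3 arrays.

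**Figure D1:**
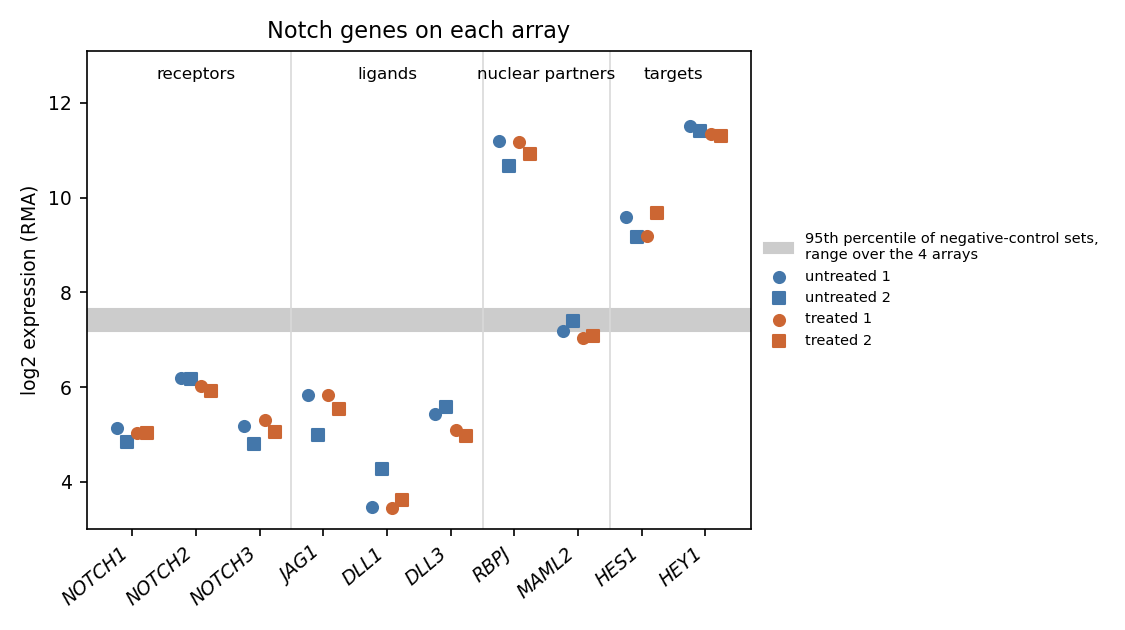
Log2 expression of each Notch gene (y axis) on each of the 4 arrays, grouped by role on the x axis; blue marks untreated and orange treated arrays, circles replicate 1 and squares replicate 2. The grey band spans the arrays' 95th percentiles of negative-control sets, 7.19 to 7.64: RBPJ, HES1 and HEY1 lie above it, MAML2 at its edge, and the 6 receptor and ligand genes below it. Levels of different genes come from different probes and are not to be ranked.

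The receptor genes were all below background. NOTCH1 had log2 values of 5.13 and 4.85 in untreated and 5.02 and 5.04 in treated cells. NOTCH2 had 6.20 and 6.18 in untreated and 6.03 and 5.92 in treated cells. NOTCH3, the receptor known from mesenchymal neuroblastoma cells, had 5.18 and 4.80 in untreated and 5.30 and 5.06 in treated cells. For NOTCH1 and NOTCH3 the groups overlapped, and for NOTCH2 both treated arrays were lower. The negative-control sets with a mean at or above that of the gene were 27.1% for NOTCH1, 12.1% for NOTCH2 and 25.8% for NOTCH3. NOTCH4, the remaining receptor gene and not a member, was also below background, at 6.51. A level below this percentile gives only a bound, so the differences printed for these receptors and for the ligands are differences between values at background and are not read as changes of the transcripts. NOTCH2 has partial copies in the NOTCH2NL genes, and how signal is split between them is uncertain. The probe set of NOTCH2NLA read 7.38 and 6.91 in untreated and 7.22 and 6.89 in treated cells and exceeded the array's own percentile on 2 of the 4 arrays.

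The ligand genes JAG1, DLL1 and DLL3 were below background as well. JAG1 had log2 values of 5.84 and 4.99 in untreated and 5.84 and 5.54 in treated cells. DLL1 had 3.47 and 4.28 in untreated and 3.45 and 3.61 in treated cells. In both genes untreated replicate 2 stood away from the other 3 arrays, low for JAG1 and high for DLL1, and the groups overlapped. The gap between the untreated arrays was 0.847 for JAG1 and 0.804 for DLL1, against a median of 0.244 over all probe sets. The sign of either difference turned without untreated replicate 2, from 0.28 to -0.14 for JAG1 and from -0.34 to 0.058 for DLL1. DLL3, a Delta-like protein that resides mostly inside the cell and is known as a surface target in neuroendocrine tumours, had 5.42 and 5.58 in untreated and 5.09 and 4.96 in treated cells. Both treated arrays were below both untreated ones. The difference of DLL3 was -0.48 (interval -0.93 to -0.04), and with a limma adjusted p of 0.948 it did not pass. No other member had an unadjusted p under 0.05; that of DLL3 was 0.0377. Without an array it ran from -0.56 to -0.40. This is a difference between values below background, where 7.32% of probe sets had an unadjusted p under 0.05, against 2.49% of those above it, and it is not read as a change.

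**Figure D2:**
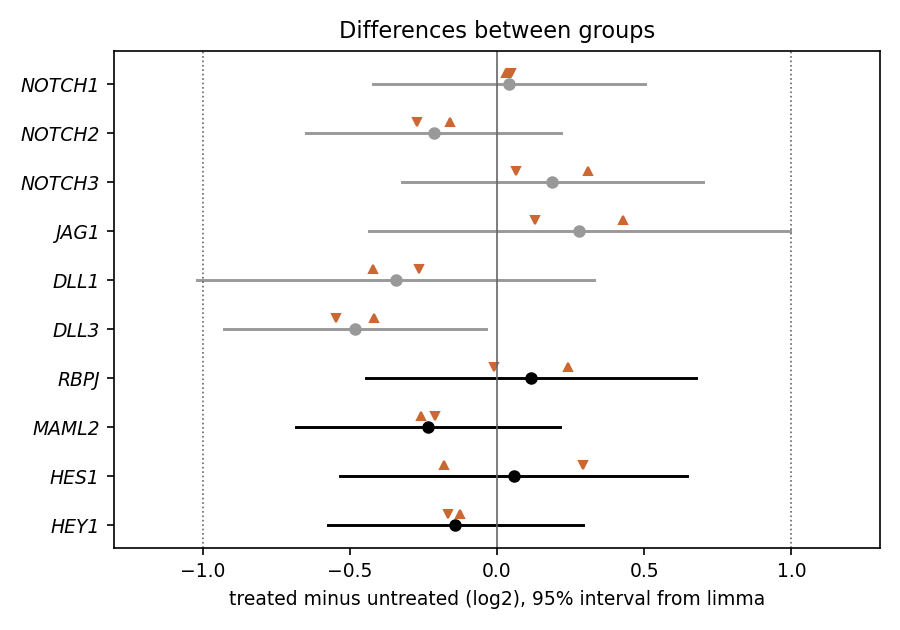
Treated minus untreated log2 expression (x axis) for each Notch gene, with dots for the difference, lines for the 95% interval from limma, and orange triangles for each treated array (up for replicate 1, down for replicate 2) minus the untreated mean. Black marks the 4 genes whose mean exceeded the background percentile and grey the 6 below it; dotted lines mark 2-fold, and the 4 black intervals lie inside them.

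Across the 10 genes, 5 differences were positive and 5 negative, where 50.9% of all probe sets were negative. Their median was -0.051, beside -0.0046 over all 21448 probe sets. The groups did not overlap for 4 genes, NOTCH2, DLL3, HEY1 and MAML2, each lower in treated cells, and for none were both treated arrays higher. Over all probe sets, 33.1% had groups that did not overlap, 16.8% with treated cells lower and 16.4% higher; among those above background, 32.3% did not overlap and 11.5% were lower. In 6 of the 10 genes the untreated arrays differed from each other by more than the groups did, as they did for 64.0% of all probe sets. For the 3 members above background on every array the interval bounds were at most 0.68 on the log2 scale in either direction, so a 2-fold change of HES1, HEY1 or RBPJ lay outside their intervals, as it did for 95.3% of the probe sets above background. An exact permutation test of 1 gene could draw on 6 arrangements of these arrays, and its smallest possible two-sided p is 0.333.

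Single arrays decided the sign of several members. Without untreated replicate 2, 5 of the 10 differences turned, those of NOTCH1, JAG1, DLL1, HES1 and RBPJ, and 8 of the 10 were then negative. NOTCH3 came to 0.0014 without that array, from 0.19 with it. NOTCH2, DLL3, HEY1 and MAML2 kept a negative difference with any 1 array left out. Their groups did not overlap, so the sign could not turn, and this adds nothing to the non-overlap. None of the 10 passed in any of these fits, where the smallest limma adjusted p, 0.346, was that of DLL1 without untreated replicate 1.

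**Figure D3:**
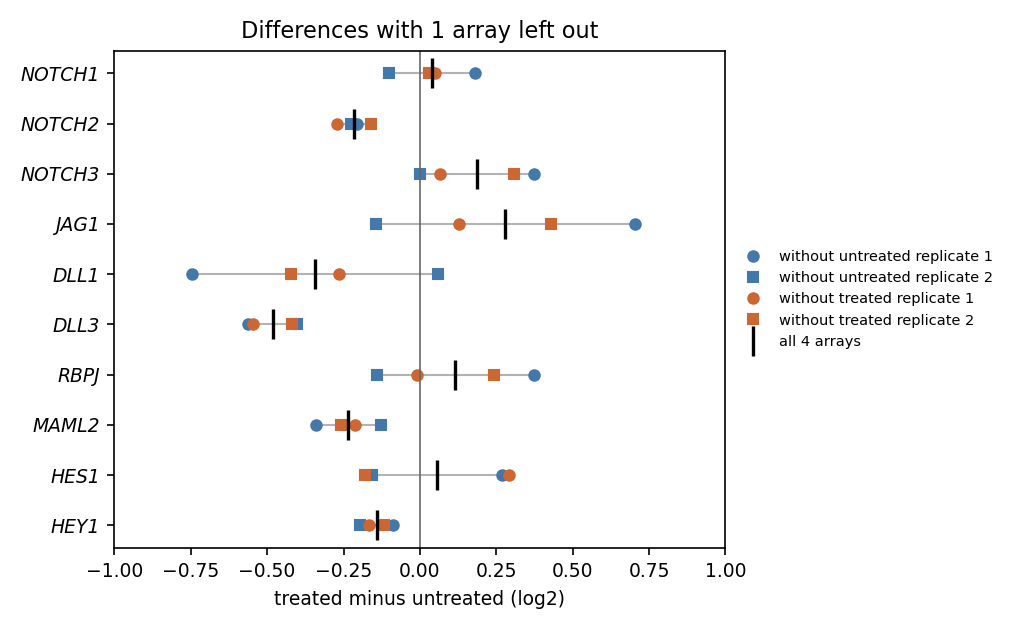
Treated minus untreated log2 expression of each Notch gene (x axis) with all 4 arrays (black bars) and with 1 array left out (blue for an untreated array, orange for a treated one, circles for replicate 1, squares for replicate 2). Points of NOTCH2, DLL3, MAML2 and HEY1 stay left of 0, as they must where groups do not overlap. Those of NOTCH1, JAG1, DLL1, RBPJ and HES1 fall on both sides.

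The rest of the pathway was examined in 8 lists of 111 genes, of which 99 had a named probe set. Of these, 53 (53.5%) were above background, beside 46.4% of all probe sets. None passed at a limma adjusted p under 0.05. An unadjusted limma p under 0.05 was found for 6 (6.06%), 3 in each direction, beside 5.08% of all probe sets. Of these 6, RBPJL, HEYL, IL2RA and SOX2 were below background, where 7.32% of probe sets had such a p. The groups did not overlap for 31 (31.3%), beside 33.1% of all probe sets. Of the 99 differences 49 were positive and 50 negative, with a median of -0.0061 that was 0.034 after quantile normalization. The medians of the 8 lists ran from -0.105 for maturation and glycosylation to 0.055 for ubiquitination and endocytosis.

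Among other receptors and ligands, 4 of 10 genes were above background. JAG2, a Jagged ligand, was the 1 classical ligand gene among JAG1, JAG2, DLL1, DLL3 and DLL4 to exceed background, and it did so on all 4 arrays. JAG2 had log2 values of 7.87 and 8.65 in untreated and 7.55 and 8.19 in treated cells. Replicate 2 was the higher array in each group and the groups overlapped. Its difference was -0.39 (interval -1.16 to 0.38; limma adjusted p 0.963) and became 0.00027 without untreated replicate 2. DLL4 stood at 4.72, below background. MFAP2, a microfibril protein reported to bind Notch ligands and receptors, had 9.94 and 9.45 in untreated and 9.56 and 10.38 in treated cells, a difference of 0.27. Leaving out untreated replicate 2 brought it to 0.031, and leaving out treated replicate 2 to -0.14.

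Of the genes for receptor processing, 6 of 8 for maturation and glycosylation and 7 of 7 for cleavage were above background by the mean of 4 arrays, where 46.4% of all probe sets were. On all 4 arrays 5 and 6 of them were, FURIN and PSEN2 excepted, beside 40.6% of all probe sets. FURIN, the protease of the first receptor cleavage, had log2 values of 6.81 and 6.67 in untreated and 7.33 and 7.15 in treated cells. Both treated arrays were higher. The mean over 4 arrays, 6.99, exceeded the limit through the treated group alone: the untreated mean, 6.74, was below background, and 1 of the 4 arrays, treated replicate 1, exceeded its own percentile. The FURIN difference was 0.50 (interval 0.05 to 0.95), with an unadjusted p of 0.0343 and a limma adjusted p of 0.948, and it starts from an untreated level that is only a bound. GXYLT1, a xylosyltransferase that extends sugars on Notch, had a difference of 0.21 (interval -0.22 to 0.65). ADAM10, the protease of the ligand-dependent cleavage, had 12.62 and 12.53 in untreated and 12.40 and 12.34 in treated cells. Its difference was -0.21 (interval -0.64 to 0.23; limma adjusted p 0.963). PSEN2, a catalytic subunit of γ-secretase, had 6.82 and 7.70 in untreated and 6.66 and 6.76 in treated cells, and exceeded its own percentile on untreated replicate 2 alone. Its difference of -0.54 became -0.11 without that array.

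In ubiquitination and endocytosis 11 of 18 genes were above background. EPN1 encodes epsin 1, an endocytic adaptor known to act in ligand-sending cells. It had log2 values of 10.06 and 10.00 in untreated and 10.45 and 10.59 in treated cells. Both treated arrays were higher, by 0.49 on average (interval 0.05 to 0.93; unadjusted p 0.0331), and EPN1 did not pass at a limma adjusted p of 0.948. Of the co-activators 5 of 7, and of the co-repressors 9 of 13, were above background. CTBP1, a co-repressor that RBPJ recruits through SPEN, had 11.23 and 11.62 in untreated and 11.65 and 11.68 in treated cells, a difference of 0.24 (interval -0.25 to 0.73) that was 0.049 without untreated replicate 1 and 0.43 without untreated replicate 2. RBPJL, the RBPJ-like gene, named after its values were seen, was below background on all arrays. Its difference of -0.63 had an unadjusted limma p of 0.0332 and is not read as a change.

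Among other HES, HEY and target genes 8 of 22 were above background, and none of the other family members HES2, HES4, HES5, HES6, HES7, HEY2, HEYL and the feedback inhibitor gene NRARP was. HES4 stood at 5.41, HES5 at 5.30, HES6 at 6.30, HEY2 at 3.59, HEYL at 5.22 and NRARP at 3.33 over the 4 arrays. HEYL had log2 values of 5.16 and 4.59 in untreated and 5.51 and 5.61 in treated cells, all below background, with an unadjusted p of 0.0247 and a limma adjusted p of 0.948. IL2RA, an interleukin receptor gene and Notch target in T cells, was likewise below background. Its difference was -0.52, with an unadjusted limma p of 0.0385. Of the 14 genes in the list of proneural and neuronal genes 3 were above background, SOX4, SOX11 and ELAVL4. SOX11 had a difference of 0.27 (interval -0.22 to 0.76), which was 0.44 without untreated replicate 1 and 0.095 without untreated replicate 2. SOX2 was also in that list, though it is a neural progenitor gene and not a proneural one. It was below background on all arrays, at 5.84 and 5.66 in untreated and 5.10 and 4.77 in treated cells (unadjusted limma p 0.00572, limma adjusted p 0.948). IL2RA and SOX2 were named after their values were seen. The differences of HEYL, IL2RA and SOX2 are between values below background, where 7.32% of probe sets had an unadjusted limma p under 0.05. They are not read as changes.

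**Figure D4:**
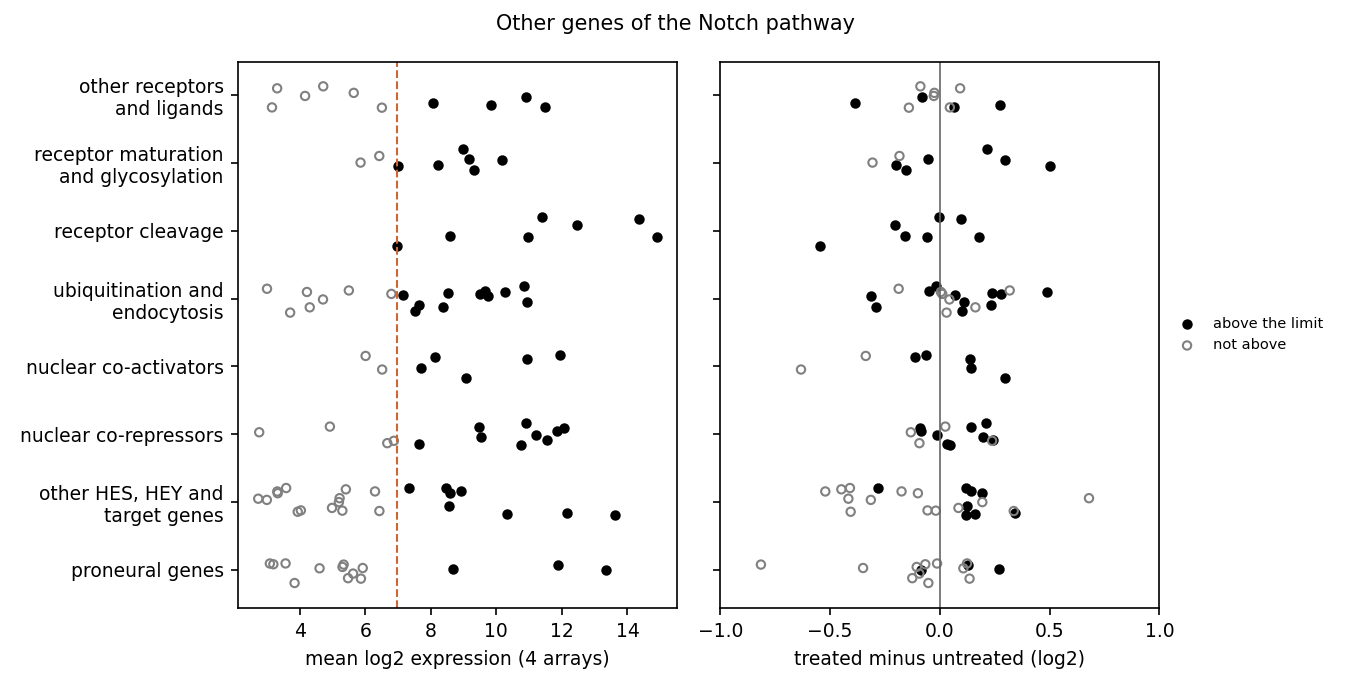
Other genes of the Notch pathway by list (y axis): mean log2 expression over the 4 arrays (left, dashed line at the background percentile of 6.96) and treated minus untreated log2 expression (right). Each circle is a gene, filled where its mean is above background; all 7 receptor cleavage genes are filled, whereas 14 of the 22 other HES, HEY and target genes are open.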

How the data were processed

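Total RNA of SK-N-AS cells was hybridised to 4 Affymetrix whole-transcript arrays, per the labels' protocols. The authors deposited 1 log2 value per probe set and array. Tools named in the submitters' processing notes are Transcriptome Analysis Console 4.0.1.36 and RMA, which includes quantile normalization and would hide a shift common to most genes. That the scale is log2 follows from the values' range. Control sets (2903 of 24351) were left out, and the other 21448 probe sets all entered the test, dim ones included. The platform annotation gave 17709 of them 1 symbol, 0 several and 3739 none, and for a gene with several the brightest was used. Groups were taken from the sample titles and compared with limma 3.58.1 (lmFit, eBayes; R 4.3.3), two-sided, with Benjamini-Hochberg adjustment over all probe sets at 0.05 (2 residual and 4.90 prior degrees of freedom). The fit was tested on simulated data. The members, lists and background percentile were chosen with earlier results of these data known. All members are named; of the other lists, genes above background with an unadjusted p under 0.05 or among the 2 smallest p of their list. Paralogs are named by level, and other exceptions are said. The number of arrays limits the precision. Alternatives were 3 normalizations, 2 filters, trended or robust moderation, a replicate block, array weights, kept controls, each array left out, and other background limits.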

Additional observations from a re-analysis of the deposited data

How the results depend on the processing

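The count of 0 probe sets, and of 0 members, at a limma adjusted p under 0.05 held in every alternative run, and the smallest adjusted p of a member over these was 0.346. All 93 member differences under other normalizations, filters, moderation, weights, controls or the block kept their sign. Only the 3 normalizations could have turned one, because the other settings left the differences themselves as they were. With 1 array left out, 33 of 40 kept their sign. That count includes the 4 members whose groups did not overlap, where the sign cannot turn. The member median of -0.051 ran from -0.142 to 0.047 with an array left out; it was -0.086 after quantile normalization or cyclic loess and 0.040 without the dimmest probe sets, which removes DLL1. Differences whose sign turned ranged from -0.10 to 0.18 for NOTCH1, -0.14 to 0.70 for JAG1, -0.75 to 0.058 for DLL1, -0.18 to 0.29 for HES1, -0.14 to 0.37 for RBPJ, -0.78 to 0.00027 for JAG2 and -0.14 to 0.68 for MFAP2. Members above the limit in untreated cells numbered 4 at the 95th, 3 at the 99th percentile and 9 at the median of the negative-control sets. The replicate numbers are not said to pair cultures, and same-numbered arrays did not deviate together (r = -0.00085 across probe sets, which are not independent). With the replicate block 0 members and 0 probe sets were called, and the member median was -0.051. Genes below background have only a bound at this signal.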
